A study of Mus musculus with 25 samples.

Results

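The Nr4a orphan nuclear receptors are a family of 3 genes, Nr4a1 (Nur77), Nr4a2 (Nurr1) and Nr4a3 (Nor1), followed here in the lungs of mice given thoracic radiation, an agonist of sphingosine 1-phosphate (S1P) receptors, or both. The members were taken by symbol: 10 of the 34945 probe sets with a single gene symbol named 1 of them, which makes 3 of the 18193 genes on the array. Nr4a1 had 1 probe set, Nr4a2 had 6 and Nr4a3 had 3. RefSeq (GRCm38.p6) places Nr4a1 at chr15:101253902-101274795, Nr4a2 at chr2:57106830-57124003 and Nr4a3 at chr4:48045078-48086447.

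All 25 mice were wildtype female C57BL/6J animals of 14 to 17 weeks and 20 to 25 g, with 1 lung RNA sample and 1 Affymetrix array per mouse, in 8 groups. The 4 controls were given phosphate-buffered saline (PBS). A single thoracic dose of 25 Gy was given to 3 mice with no compound (the radiation group). Each of 3 compounds, named fTyS, SEW and FTY in the labels, was injected into the peritoneum at 0.1 mg/kg 2 times a week, in 3 mice without radiation and in 3 mice with the same 25 Gy (radiation+fTyS, radiation+SEW, radiation+FTY). FTY stands for FTY720 (fingolimod), a sphingosine analog that cells phosphorylate to an S1P receptor agonist. fTyS is the (S)-phosphonate of FTY720, which carries a phosphonate where the active form of FTY720 carries a phosphate. SEW is SEW-2871, an S1pr1-selective agonist of unrelated, non-sphingosine structure. The labels do not say how long after irradiation the lungs were taken. The samples are whole lung, so fewer cells of a type and less RNA per cell cannot be told apart.

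As background, the NR4A proteins are nuclear receptors without a known physiological ligand, whose activity follows how much protein the cell makes. They bind DNA as monomers or dimers, and Nr4a1 and Nr4a2 also pair with retinoid X receptors. The genes are immediate early genes: their transcription rises within the hour after growth factors, calcium, cAMP or stress, through CREB, SRF and MEF2 at their promoters, and their mRNAs are short-lived. In the lung, Nr4a1 is needed for patrolling monocytes, and all members have been studied in macrophages, T cells, endothelium and smooth muscle.

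The promoters of all 3 genes share a cluster of short sites for CREB, the factor through which cAMP induces genes. The 250 bases before the start in the RefSeq promoter set were searched. For Nr4a1 (chr15:101266596-101266845) and Nr4a3 (chr4:48045055-48045304) that start lies inside the gene span given above, after its first base. Each promoter held 4 copies of the CRE core TGACG, counted on both strands, which reads CGTCA on the minus strand. Their first bases lie 233, 213, 69 and 40 bases before the start in Nr4a1, 200, 144, 123 and 111 in Nr4a2, and 231, 213, 205 and 147 in Nr4a3. The stretches that carry these cores are shown 5′ to 3′ on the strand of the gene, with the cores in capitals (RefSeq, GRCm38.p6); for Nr4a1 and Nr4a3, whose stretch lies partly or wholly inside the RefSeq gene span, they are short windows, which for Nr4a3 hold 3 of its 4 cores.
Nr4a1, chr15:101266613-101266637, plus strand: CGTCAatggaaccccgcgtgCGTCA
Nr4a1, chr15:101266767-101266796, plus strand: gggccgtgtgCGTCAgtggcgcccccgccc
Nr4a1, chr15:101266798-101266827, plus strand: tctccatgCGTCAcggagcgcttaagatgt
Nr4a2, chr2:57124004-57124253, minus strand: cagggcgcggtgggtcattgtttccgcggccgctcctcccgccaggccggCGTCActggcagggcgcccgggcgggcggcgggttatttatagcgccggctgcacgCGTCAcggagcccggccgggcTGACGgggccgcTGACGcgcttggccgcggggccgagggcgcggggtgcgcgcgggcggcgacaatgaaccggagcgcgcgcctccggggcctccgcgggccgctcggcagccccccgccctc
Nr4a3, chr4:48045071-48045096, plus strand: gggTGACGtagcgtcccatgtCGTCA
Nr4a3, chr4:48045144-48045173, plus strand: tcctgtggcataaaTGACGtgccgagagag
Of 32851 mouse promoters of the same length, 17.8% held any core and 0.137% held 4 or more. The family's promoters are rich in G and C (74.4% for Nr4a1, 80% for Nr4a2 and 63.6% for Nr4a3), and among promoters within 5 percentage points of the same content, 0.289%, 0.323% and 0.364% held 4 or more. The full CRE TGACGTCA (in 1.55% of promoters), the NBRE AAAGGTCA, which is the monomer site of the receptors themselves (1.34%), the EGR site GCGTGGGCG (0.536%) the E-box CACGTG (6.02%), the CArG box bound by SRF (1.47%) and the MEF2 site (0.508%) were in none of the 3 stretches of 250 bases, on either strand. The TATA box TATAAA (12.4% of promoters) was in the stretch of Nr4a2 alone. There it reads TTTATA on the strand of the gene, 164 bases before the start. A match of letters is a description and not a site shown to be used.

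Signals are on the linear scale of the deposited table, and differences are on the log2(signal + 16) scale, which understates the change of low probe sets. Array medians ran from 118 to 129 and correlations between arrays from 0.965 to 0.994, and the lung genes Sftpc, Scgb1a1 and Ager were above the 99.9th percentile of all probe sets. Of the 10 probe sets, 6 passed the filter on low signal (a mean above the 40th percentile of all probe sets), at least 1 for each gene. A gene was called where the adjusted p was at most 0.05 (limma, Benjamini-Hochberg adjustment over the 12937 genes tested in each comparison). Control replicate 4 went against its label: the mean of 18 p53 target genes was 10.06 on that array, 9.33 to 9.70 on the other 12 unirradiated arrays and 9.93 to 10.18 on the 12 irradiated ones. The members' called results against control are therefore given with and without it. For the other genes named from lists, whose calls against control and in interactions were refitted without it (chosen after seeing the data), 30 of 36 calls were kept, none changed sign, and the values of those that were lost stand beside the results. Comparisons against control share the control arrays, and those against radiation share the radiation arrays.

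Nr4a3 was the member whose level moved most with the treatments. Each compound given alone, and radiation given alone, raised it, whereas its mean was lower where radiation and a compound were combined. This decrease passed the test against both parts with FTY, against the compound alone with SEW, and against neither part with fTyS. The probe set that represents it (1438796_at) read 395, 241, 149 and 489 in the 4 control lungs. Radiation gave 648, 723 and 633. All 3 irradiated lungs lay above all 4 controls, and they varied less than the controls did; in this comparison 13.8% of all genes had groups without overlap.

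With the compounds alone, Nr4a3 read 1004, 819 and 905 with fTyS. With SEW it read 778, 770 and 865. With FTY it read 989, 655 and 658. All 9 lungs lay above every control, so no compound group overlapped with control. Groups without overlap made up 11.0% of all genes with fTyS, 27.6% with SEW and 15.3% with FTY. In the combined groups the values were low again: 448, 288 and 552 with radiation+fTyS, 338, 557 and 412 with radiation+SEW, and 204, 202 and 275 with radiation+FTY. Every one of these 9 lungs lay below the lowest lung given radiation alone, and the radiation+FTY lungs lay within the control range.

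**Figure D1:**
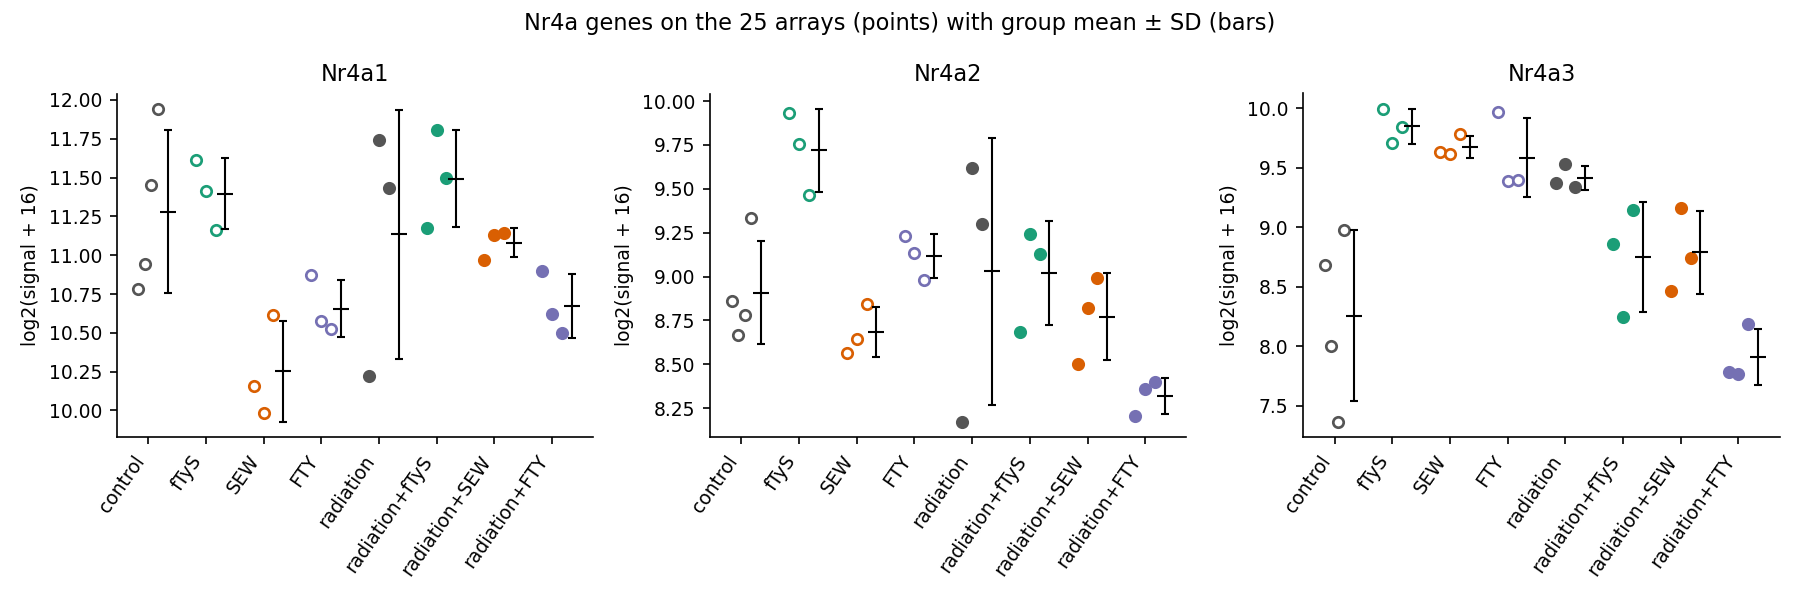
Level on the log2(signal + 16) scale of the representative probe set of Nr4a1, Nr4a2 and Nr4a3 on each of 25 arrays (points), by treatment group, with the group mean and SD as bars; filled points are irradiated lungs and colours mark the compound. For Nr4a3 the 4 groups given radiation or a compound alone lie above the controls (means 9.42 to 9.85 against 8.26), and the 3 combined groups lie lower.

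In order of their mean log2 level (± SD), the groups ran fTyS 9.85 ± 0.14, SEW 9.68 ± 0.09, FTY 9.59 ± 0.34, radiation 9.42 ± 0.10, radiation+SEW 8.79 ± 0.35, radiation+fTyS 8.75 ± 0.46, control 8.26 ± 0.72 and radiation+FTY 7.91 ± 0.24. The only neighbours in this order without overlap were radiation and radiation+SEW, whose means were 0.63 apart. The moderated F test over the 8 groups called Nr4a3 (F = 11.7, adjusted p = 0.000608), as it did Nr4a2 (F = 4.92, adjusted p = 0.0180) and Nr4a1 (F = 3.94, adjusted p = 0.0376), where 23.6% of all genes were called. The call of Nr4a1 was lost in 13 of the 25 fits that left out 1 array (F from 2.93 to 3.73 in those, without control replicate 3, fTyS 1 or 2, SEW 1 or 2, FTY 2 or 3, radiation+fTyS 2 or 3, radiation+SEW 2 or 3, or radiation+FTY 2 or 3) and with the neutrophil mean as a covariate (F = 3.58). That of Nr4a2 was lost without fTyS replicate 1 (F = 3.49), and that of Nr4a3 in none of these.

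Radiation raised Nr4a3 by 1.16 ± 0.28 (SE) on the log2 scale, 2.23-fold (adjusted p = 0.0218), and 4.40% of all genes were called in that comparison. Nr4a1 differed by -0.15 (95% interval -0.75 to 0.46) and Nr4a2 by 0.12 (-0.38 to 0.62), and neither passed the test. Without control replicate 4 these were 0.08 (adjusted p = 0.928) and 0.26 (adjusted p = 0.629), so that of Nr4a1 changed sign, and the increase of Nr4a3 was 1.40 (adjusted p = 0.00297). It was not called without control replicate 2 (1.07), control replicate 3 (0.86), radiation replicate 1 (1.18) or radiation replicate 2 (1.10), with adjusted p from 0.0712 to 0.0779. All 8 tested markers of neutrophils rose with radiation as well, and the list mean was 9.75 to 10.80 in irradiated lungs and 7.55 to 8.63 in controls. With that mean as a covariate the Nr4a3 difference was 0.80 (adjusted p = 0.946, against 0.00153 to 0.946 over all alternatives).

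Each compound alone raised Nr4a3. The increase was 1.59 ± 0.28 with fTyS, 3.01-fold (adjusted p = 0.0309), where 0.178% of all genes were called and Nr4a3 was among 23 genes. It was 1.42 ± 0.28 with SEW, 2.68-fold (adjusted p = 0.00342; 14.6% of genes called). It was 1.33 ± 0.28 with FTY, 2.51-fold (adjusted p = 0.0194; 2.73% of genes called). Without control replicate 4 the increases were 1.83, 1.66 and 1.57, and each stayed called (adjusted p = 0.00808, 0.00145 and 0.00904). In these unirradiated groups the neutrophil mean was 8.20 to 8.43 with fTyS, 7.22 to 7.36 with SEW and 7.62 to 7.98 with FTY, beside 7.55 to 8.63 in controls.

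Leaving out single lungs ended some of these calls. The fTyS call was lost without control replicate 3 (1.29), fTyS replicate 1 (1.52) or fTyS replicate 2 (1.66). The FTY call was lost without control replicate 2 (1.24), control replicate 3 (1.03), FTY replicate 1 (1.13) or FTY replicate 3 (1.42). The SEW call was kept in all 7 such fits. The SE pools the spread of all 8 groups, and the controls had an SD of 0.72. In limma fits of only the arrays compared, the calls with fTyS, SEW and FTY were lost (adjusted p = 0.292, 0.0529 and 0.208). That with radiation was lost too (adjusted p = 0.173).

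**Figure D2:**
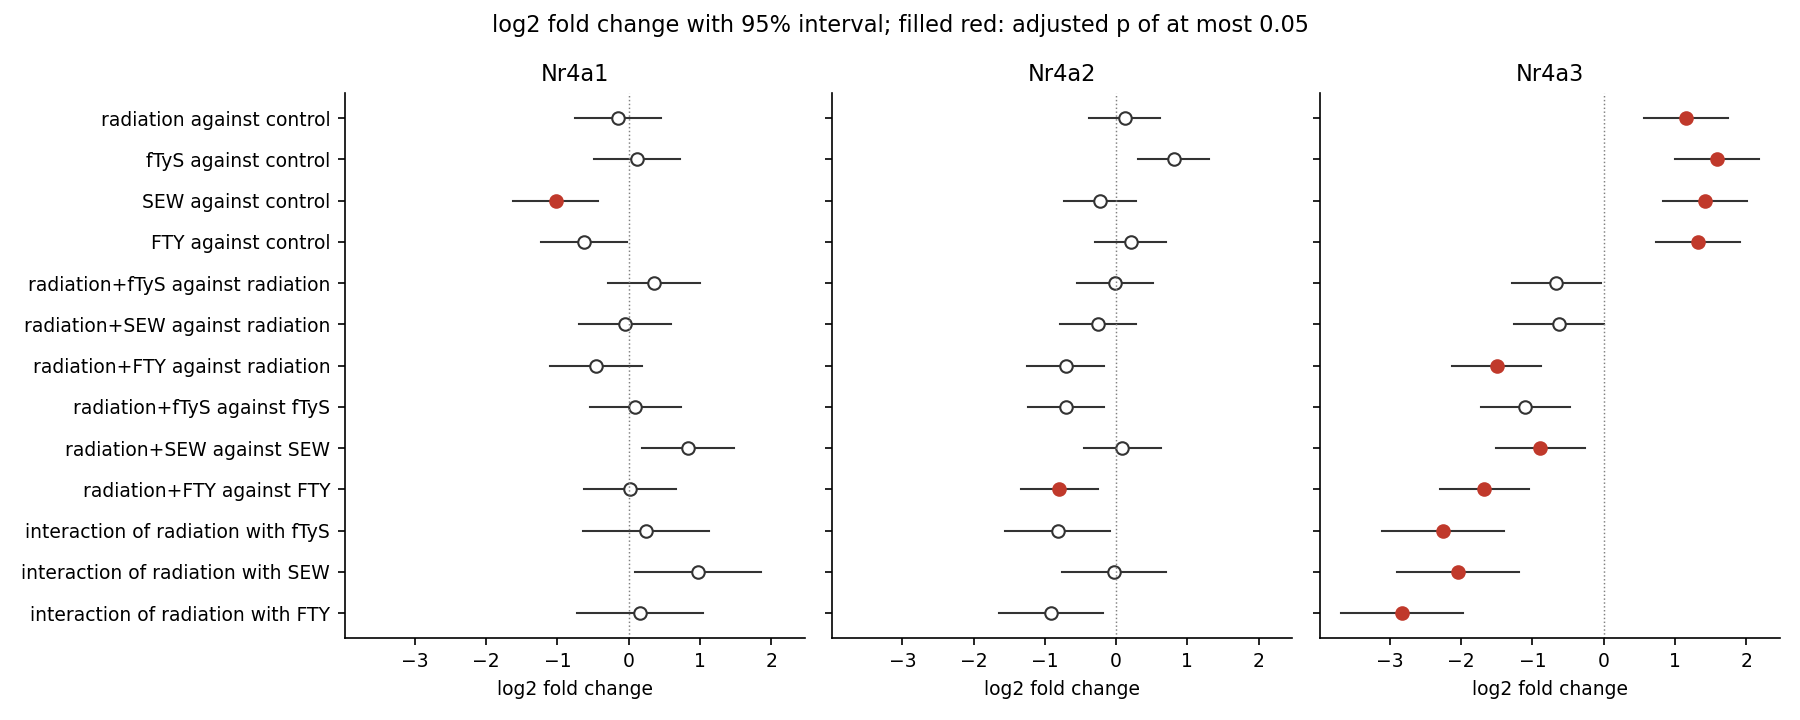
Log2 fold change of Nr4a1, Nr4a2 and Nr4a3 (points) with the 95% interval of the limma fit (lines) in the 10 comparisons against control, radiation or the compound alone and in the 3 interactions; filled red points passed an adjusted p of 0.05. Nr4a3 has 4 called increases against control (1.16 to 1.59). Its called decreases are radiation+FTY against radiation (-1.50) and against FTY (-1.67), and radiation+SEW against SEW (-0.89). Radiation+SEW against radiation, and both comparisons of radiation+fTyS with its parts, were not called. Its 3 interactions were called.

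Nr4a3 was lower in every lung given radiation with a compound than in any lung given radiation alone, and with FTY this passed the test. With FTY it fell by 1.50 ± 0.30 (adjusted p = 0.0162), to 0.353 of the level with radiation alone, and 3.02% of genes were called. The differences with fTyS (-0.66 ± 0.30, adjusted p = 0.360; 0.858% of genes called) and SEW (-0.63 ± 0.30, adjusted p = 0.291; 2.48% called) did not pass, although neither combined group overlapped with radiation alone. Groups without overlap were common in these comparisons, in 17.7% of all genes for fTyS, 27.1% for SEW and 27.7% for FTY. The FTY call was lost without radiation+FTY replicate 1 (-1.44). Of 6 mesothelial markers tested, Upk3b, Lrrn4, Wt1 and Bnc1 were called higher in the same comparison. The mean of that list was 9.48 to 9.80 by array with radiation+FTY and 8.52 to 8.84 with radiation alone. Of 8 neutrophil markers tested, Trem1, Clec4d and Il1b were called lower. Their list mean was 8.51 to 9.87 with radiation+FTY, which overlapped with 9.75 to 10.80 under radiation alone. The part of mesothelium in the Nr4a3 difference was not tested. With the means of skeletal muscle and adipocyte markers as covariates the FTY difference was -1.35 (adjusted p = 0.0662), and with the neutrophil mean -1.34 (adjusted p = 0.159; 0.00343 to 0.159 over all alternatives).

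Set against the same compound without radiation, every irradiated lung had less Nr4a3 than every unirradiated one, under each compound (groups without overlap were 15.8% of all genes for fTyS, 42.2% for SEW and 31.8% for FTY). With FTY the level fell by 1.67 ± 0.30 (adjusted p = 0.00201), where 14.1% of genes were called. With SEW it fell by 0.89 ± 0.30 (adjusted p = 0.0462), where 17.7% were called. With fTyS the difference was -1.10 ± 0.30 and did not pass (adjusted p = 0.106; 0.456% of genes called). The SEW call was near the threshold: it was lost without SEW replicate 1 (-0.91), SEW replicate 2 (-0.92), SEW replicate 3 (-0.84), radiation+SEW replicate 1 (-0.73) or radiation+SEW replicate 3 (-0.86). The FTY call was kept in all 6 such fits.

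The direction of the radiation difference in Nr4a3 thus turned with the compound, and the design tests this turn as an interaction, the radiation difference under a compound minus that without one. For Nr4a3 the interaction was -2.25 ± 0.41 with fTyS (adjusted p = 0.0178), where 1.35% of all genes were called. With SEW it was -2.05 ± 0.41 (adjusted p = 0.00409; 13.9% of genes called), and with FTY it was -2.83 ± 0.41 (adjusted p = 0.00171; 6.84% called). The 3 interactions share the control and radiation arrays. Without control replicate 4 they were -2.50, -2.29 and -3.07. Every call was kept in the 13 fits that left out 1 array, over which the values ran from -2.50 to -1.96 for fTyS, -2.29 to -1.75 for SEW and -3.07 to -2.53 for FTY. With the neutrophil mean as a covariate the fTyS interaction was -1.93 (adjusted p = 0.274; 0.000268 to 0.274 over all alternatives), and those with SEW and FTY stayed called.

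**Figure D3:**
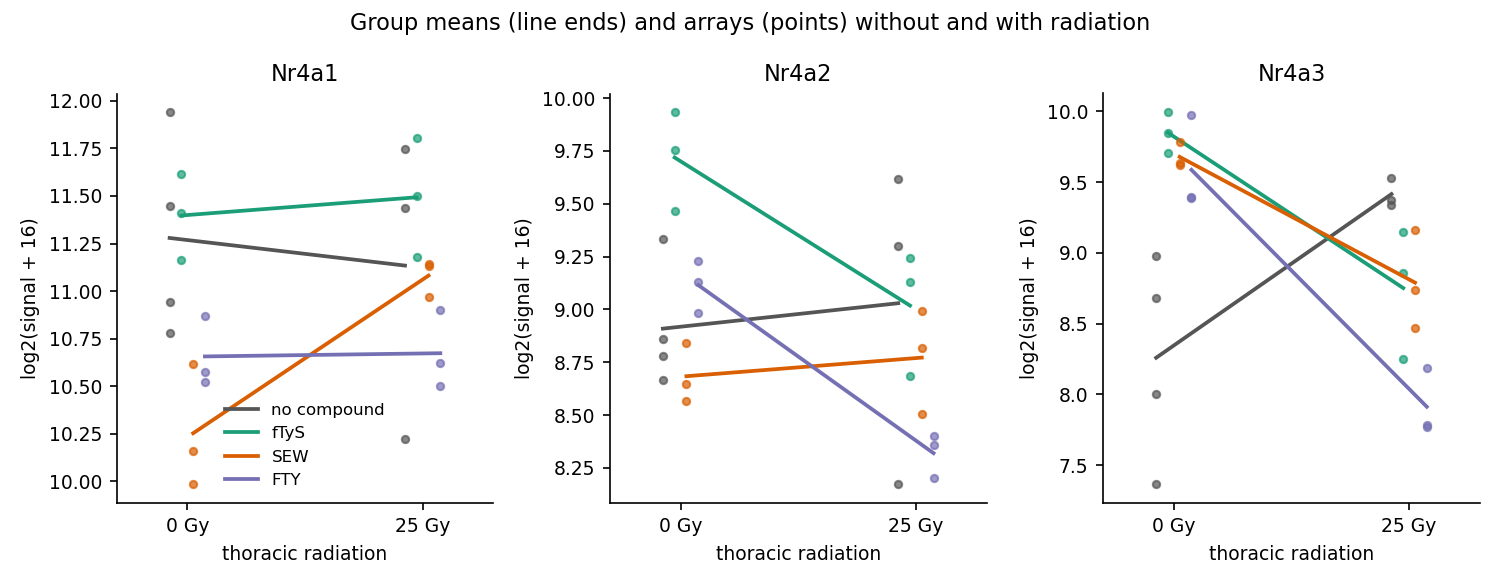
Level of each Nr4a gene on the log2(signal + 16) scale at 0 and 25 Gy (x axis), without a compound and with each compound (colours); line ends are group means and points are single arrays. The Nr4a3 line rises without a compound, by 1.16, and falls with each compound; no interaction of Nr4a1 or Nr4a2 passed the test (adjusted p of 0.114 to 0.968).

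Nr4a1 moved differently. Its probe set (1416505_at) read 1745, 1956, 2780 and 3916 in controls. It read 1127, 997 and 1553 with SEW. It read 1855, 1512 and 1455 with FTY. The SEW lungs all lay below the lowest control, and the highest value of the whole study was that of control replicate 4.

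With fTyS, Nr4a1 read 3123, 2709 and 2279, inside the control range. Radiation gave 1179, 3416 and 2752, the widest spread of any group. The combined groups read 2300, 3561 and 2876 with fTyS, 1991, 2228 and 2243 with SEW, and 1897, 1558 and 1431 with FTY. The 3 lowest groups were thus SEW, FTY and radiation+FTY.

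By mean log2 level, radiation+fTyS (11.49), fTyS (11.40), control (11.28), radiation (11.13) and radiation+SEW (11.08) overlapped with their neighbours. The mean of radiation+SEW was 0.41 above that of radiation+FTY (10.67), and FTY (10.66) and SEW (10.25) followed. Arrays of radiation+SEW (lowest 10.97) and radiation+FTY (highest 10.90) did not overlap, as in 15.4% of all genes. The lowest control (10.78) and the lowest radiation lung (10.22) lay among the lungs of the lower groups. SEW against control was the 1 comparison of 19 in which Nr4a1 was called: it fell by 1.03 ± 0.29 (adjusted p = 0.0240), to 0.491 of control. In that comparison 14.6% of all genes were called, and 27.6% had groups without overlap. Without control replicate 4 the difference was -0.81 and did not pass (adjusted p = 0.0643; 0.0103 to 0.0978 over all alternatives). It was also not called without control replicate 3 (-0.97), SEW replicate 1 (-0.98) or SEW replicate 2 (-0.89). FTY differed from control by -0.62 ± 0.29 (adjusted p = 0.254) and fTyS by 0.12 ± 0.29 (adjusted p = 0.857). Without control replicate 4 these were -0.40 (adjusted p = 0.470) and 0.34 (adjusted p = 0.573).

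Among markers of patrolling monocytes, the cells that need Nr4a1, 1 of 8 was called with SEW, where 14.6% of all genes were: Cx3cr1 fell by 0.85 ± 0.19 (adjusted p = 0.00798). Cx3cr1 was the 1 called with FTY too, where 2.73% of all genes were. There it fell by 0.72 ± 0.19 (adjusted p = 0.0492), a call lost without control replicate 4 (-0.73, adjusted p = 0.0697). The mean of the 8 markers was 9.11 to 9.23 with SEW and 9.23 to 9.60 in controls. The part of these cells in the Nr4a1 difference was not tested.

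Nr4a2 was highest with fTyS alone and lowest with radiation+FTY. The representative probe set (1455034_at) read 448, 390, 423 and 628 in controls. It read 962, 848 and 692 with fTyS, so that all 3 lungs lay above every control, and 11.0% of all genes had groups without overlap there. In 1450750_a_at, another probe set of the gene, the groups did overlap: fTyS replicate 3 (491) lay below control replicate 4 (514). With radiation+FTY it read 279, 312 and 322, beside 390 to 628 in controls, a pair of groups that was not tested.

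The means of the other groups lay between. SEW gave 362, 385 and 443, and FTY gave 585, 545 and 490. Radiation gave 273, 769 and 614, which includes the lowest lung of the study. The combined groups gave 395, 590 and 544 with fTyS and 347, 435 and 494 with SEW.

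By mean log2 level, fTyS (9.72) was 0.60 above the next group, FTY (9.12), and their arrays did not overlap, as in 10.2% of all genes. The highest radiation lung (9.62) lay inside the fTyS range (9.47 to 9.93). Radiation (9.03), radiation+fTyS (9.02), control (8.91), radiation+SEW (8.77) and SEW (8.68) followed with overlap. The mean of radiation+FTY (8.32) lay 0.36 below that of SEW, a pair of groups that was not tested. The lowest radiation lung (8.17) lay below every radiation+FTY lung. Of 19 comparisons 2 were called. Nr4a2 was 1.03 ± 0.26 higher with fTyS than with SEW (adjusted p = 0.0455), where 1.55% of genes were called, and it was lower with radiation+FTY than with FTY, by -0.80 ± 0.26 (adjusted p = 0.0436), where 14.1% were called. The first kept its call only without fTyS replicate 3 (1.16) and lost it without fTyS replicate 1 (0.93) or 2 (1.02) or SEW replicate 1 (0.98), 2 (1.02) or 3 (1.11). The second lost it in each of 6 fits, without FTY replicate 1 (-0.74), 2 (-0.79) or 3 (-0.86) or radiation+FTY replicate 1 (-0.74), 2 (-0.81) or 3 (-0.84). The fTyS difference from control was 0.81 ± 0.24 and did not pass (adjusted p = 0.137; 0.95 and 0.0878 without control replicate 4). The interactions were -0.82 with fTyS and -0.92 with FTY, with adjusted p of 0.263 and 0.114.

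The probe sets of a gene gave different amounts of information. For Nr4a2, 4 probe sets passed the filter (1455034_at, 1450750_a_at, 1447863_s_at and 1450749_a_at, with lowest and highest signals of 201 and 962), and r between any pair of them was 0.835 to 0.977 over the 25 arrays. The other 2 stayed low, at 31.0 to 70.5 (1433423_at) and 1.32 to 35.3 (1433422_at). For Nr4a3, 1438796_at ran from 149 to 1004, whereas 1421079_at stayed at 18.0 to 34.3 and 1421080_at at 11.5 to 35.4. The Nr4a3 results therefore rest on a single probe set. In a fit of all 22714 probe sets that passed the filter, 1438796_at was called in the same 10 comparisons as in the fit of genes. Of the Nr4a2 probe sets, 1455034_at was called in radiation+FTY against FTY (adjusted p = 0.0421) and fTyS against SEW (adjusted p = 0.0482), and 1450749_a_at in radiation+FTY against FTY (-0.50, adjusted p = 0.0154) and radiation+fTyS against radiation+FTY (0.46, adjusted p = 0.0337). Of all probe sets, 14.2%, 1.29% and 7.59% were called in radiation+FTY against FTY, fTyS against SEW and radiation+fTyS against radiation+FTY.

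**Figure D4:**
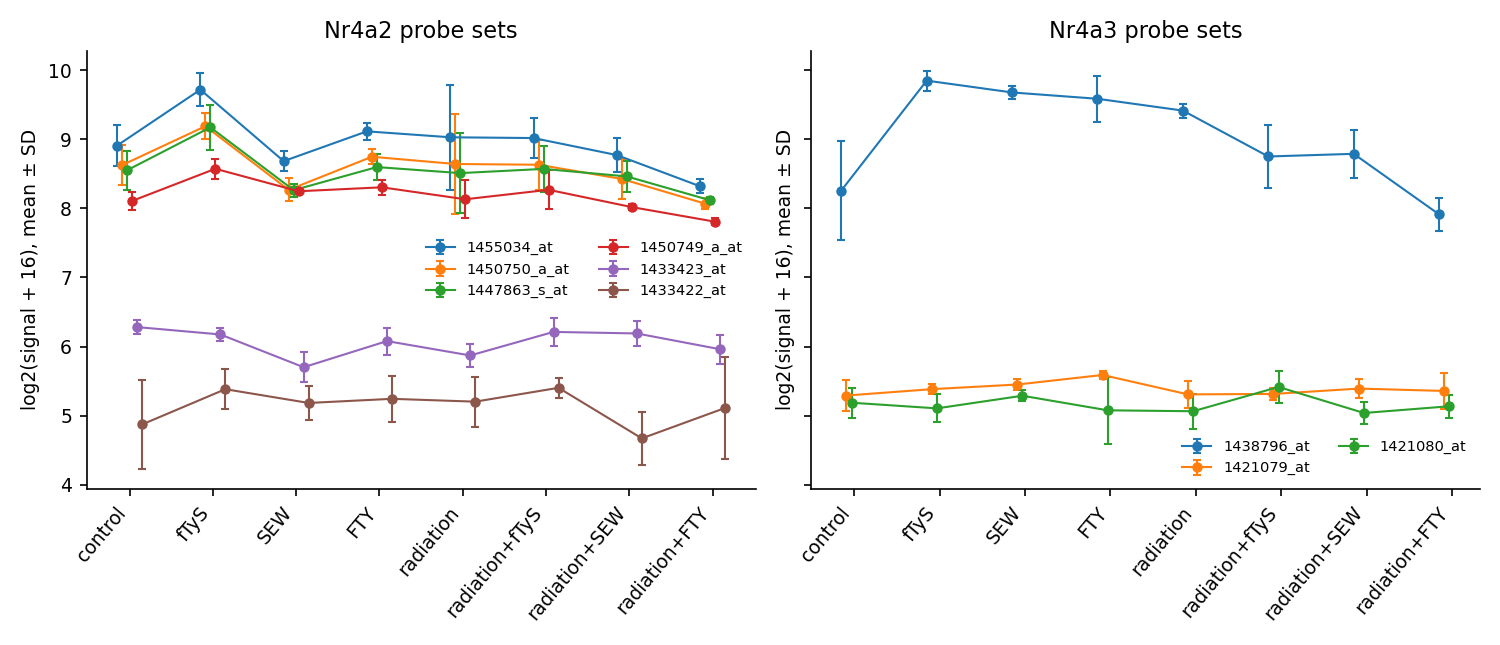
Group mean and SD (error bars) on the log2(signal + 16) scale of the 6 probe sets of Nr4a2 and the 3 of Nr4a3, by treatment group; lines only join the points of a probe set. The 4 higher probe sets of Nr4a2 and the single one of Nr4a3 passed the filter at 6.49, and the others lie below it.

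The compounds were compared pair by pair at the matched dose, in 18 tests (6 pairs of groups and 3 genes). The members were chosen with earlier results of these data known. A p adjusted over only these 18 tests does not allow for that choice, so the adjusted p over all genes is given beside it. For Nr4a3 without radiation the differences did not pass: fTyS minus SEW was 0.17 (95% interval -0.46 to 0.80), fTyS minus FTY was 0.26 (-0.37 to 0.89), and SEW minus FTY was 0.09 (-0.54 to 0.72). These intervals reach 0.72 to 0.89, so they do not show that the compounds act alike. For the other members the means differed between the phosphonate and SEW-2871. With fTyS, Nr4a1 was 1.14 ± 0.31 higher and Nr4a2 1.03 ± 0.26 higher than with SEW (p adjusted over the 18 tests in limma, 0.0127 and 0.0118). Over all genes Nr4a1 did not pass (adjusted p = 0.0615) and Nr4a2 did (adjusted p = 0.0455). Against FTY, the parent compound, fTyS had Nr4a1 higher by 0.74 (interval 0.10 to 1.39) and Nr4a2 by 0.60 (0.07 to 1.14), and neither passed (p over the 18 tests 0.0652 for both).

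After radiation the largest differences in mean were from FTY, and none of them passed over all genes. Nr4a1, Nr4a2 and Nr4a3 had higher means with radiation+fTyS than with radiation+FTY, by 0.82, 0.70 and 0.84 (p over the 18 tests in limma 0.0457 for each). Over all genes none of the 3 passed (adjusted p = 0.132, 0.122 and 0.114, with 3.95% of genes called). The mean of Nr4a3 was also 0.88 ± 0.30 higher with radiation+SEW than with radiation+FTY (p over the 18 tests in limma 0.0457). Over all genes this did not pass (adjusted p = 0.513). For radiation+fTyS against radiation+SEW the differences were 0.41 (interval -0.23 to 1.06), 0.25 (-0.29 to 0.78) and -0.04 (-0.67 to 0.59) for Nr4a1, Nr4a2 and Nr4a3. Across all genes limma called 0% in fTyS against FTY, SEW against FTY, radiation+fTyS against radiation+SEW and radiation+SEW against radiation+FTY, with 769, 1178, 1414 and 1036 genes at an unadjusted p under 0.05.

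Lungs that were high in Nr4a1 were high in Nr4a2. The permutation over arrays ignores the 8 groups, whose means differed for each member. Its p therefore takes in shared group differences and does not measure a relation between single lungs. The permutation of deviations stays within groups. Over the 25 arrays r was 0.668 (permutation p = 0.00025, adjusted over 3 pairs 0.00075) and Spearman's rho 0.665 (p = 0.00032, adjusted 0.00096). Over deviations from the group means, r was 0.860 (permutation p = 0.00035, adjusted 0.00105) and rho 0.797 (p = 0.00029). Without the 2 arrays farthest from the median of Nr4a1, r was 0.673 over arrays and 0.750 within groups. No relation of Nr4a1 with Nr4a3 was detected: r was -0.09 (permutation p = 0.680) over arrays and 0.11 (p = 0.723) within groups, with rho of -0.09 (p = 0.681) and 0.07 (p = 0.770). Nr4a2 and Nr4a3 had an r of 0.552 (permutation p = 0.00469, adjusted 0.00704) and a rho of 0.535 (p = 0.00669) over arrays. Within groups this relation did not hold up (r 0.302, permutation p = 0.138, adjusted 0.208; rho 0.343, p = 0.154).

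The genes most like each member, the 5 of 12937 with the highest r over the 25 arrays, fell into different sets. For Nr4a1 they were Egr3 (0.856), Egr1 (0.832), Fos (0.816), Kcne4 (0.788) and Junb (0.757), of which 4 are immediate early transcription factors, and within groups their r was 0.699 to 0.897. For Nr4a2 they were Apold1 (0.884), an immediate early gene of endothelium, Atf3 (0.862), a stress-induced factor, Srf (0.805), Klf6 (0.754) and Gem (0.717). For Nr4a3 they were Tnfrsf12a (0.856), Mcl1 (0.853), a survival protein, Crem (0.848), a CREB-family factor induced by cAMP, Fosl2 (0.827) and Dnaja1 (0.825). Within groups the r of Nr4a3 with Crem was 0.808 and with Fosl2 0.776, but with Tnfrsf12a 0.365. The points of these correlations share groups and tissue makeup, and no p is given.

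**Figure D5:**
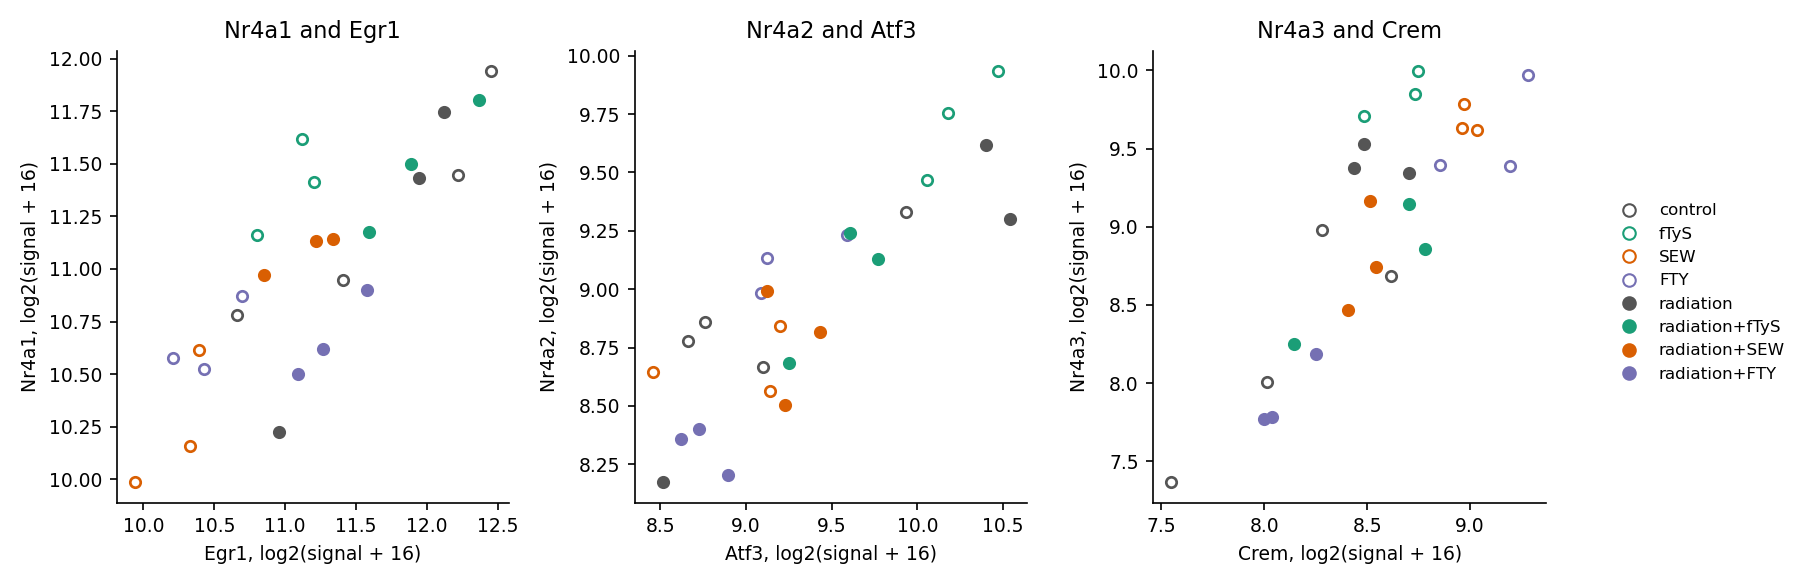
Level of each Nr4a gene against that of a gene with a like pattern on the same 25 arrays, both as log2(signal + 16) (Egr1 for Nr4a1, Atf3 for Nr4a2, Crem for Nr4a3, chosen after their values were seen); colours mark the compound and filled points are irradiated lungs. The pairs rise together, with r of 0.832, 0.862 and 0.848.

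The mean of the AP-1 and EGR family, the other early transcription factors, followed Nr4a1 from lung to lung, and Nr4a3 less, but not every member did. The mean of the 9 tested genes had an r of 0.931 with Nr4a1, 0.640 with Nr4a2 and 0.024 with Nr4a3 over the 25 arrays. For Fos, Junb, Egr1, Egr2, Egr3 and Atf3, r was 0.733 to 0.856 with Nr4a1 and -0.454 to 0.502 with Nr4a3. Jun went the other way, with an r of 0.171 with Nr4a1 and 0.553 with Nr4a3, and Fosl2 had an r of 0.827 with Nr4a3. With SEW, 4 of the 9 were called, all lower, where 14.6% of all genes were called and 10.8% were called lower: Egr1 by 1.46 ± 0.33, Fos by 1.02 ± 0.26, Junb by 0.81 ± 0.14 and Jund by 0.21 ± 0.06. The median of the list there was -0.37, and that of all genes was -0.02. With FTY, Egr1 was the only one called (lower by 1.24 ± 0.33, adjusted p = 0.0487), where 2.73% of all genes were called. Without control replicate 4 its difference was -0.98 (adjusted p = 0.109). The mean of the list was 9.92 with FTY (9.84 to 10.04 by array) and 10.27 in controls (9.94 to 10.74). The list medians with fTyS and with radiation alone were 0.05 and 0.10. When FTY was added to radiation, Jun fell by 0.54 ± 0.09, where 3.02% of all genes were called. In lungs given SEW or FTY, mean Egr1 was thus lower and mean Nr4a3 higher than in controls.

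Of the 8 tested targets of cAMP and CREB, Crem was the one called with the compounds alone, in the direction of Nr4a3. It read 171 to 376 in controls, 483 to 509 with SEW and 446 to 606 with FTY, without overlap. It rose by 0.88 ± 0.18 with SEW (adjusted p = 0.00455) and by 0.995 ± 0.182 with FTY (adjusted p = 0.00967). Of all genes, 14.6% were called with SEW and 2.73% with FTY, and 27.6% and 15.3% had groups without overlap. The differences were 0.54 with fTyS (adjusted p = 0.179) and 0.43 with radiation (adjusted p = 0.226). With radiation+FTY, Crem read 240 to 289 and fell by 1.01 ± 0.19 from FTY alone (adjusted p = 0.00293). Pde4b, a cAMP phosphodiesterase, was called in the same comparison at -0.71 ± 0.19, where 14.1% of all genes were called. The interaction of radiation for Crem was -0.93 with SEW (adjusted p = 0.0257), -1.44 with FTY (adjusted p = 0.00632) and -0.54 with fTyS (adjusted p = 0.351). Of all genes, 13.9%, 6.84% and 1.35% were called in these interactions.

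Among 27 other tested immediate early genes, 5 were called with SEW, all lower, beside 14.6% of all genes called and 10.8% called lower. Among the 5 were Ccn1 (-0.89 ± 0.23), Hbegf (-0.55 ± 0.12), Ier3 (-0.47 ± 0.10) and Ier2 (-0.42 ± 0.12). With FTY, 2 rose and 3 fell: Nfil3, a clock-linked repressor, rose by 1.82 ± 0.45 and Klf10 by 0.58 ± 0.14, and Ccn1 and Ier3 were among those that fell, beside 2.73% of all genes called. Without control replicate 4, 2 were called higher and 3 lower with SEW, and 2 higher and 2 lower with FTY. Calls lost then were Ier2 with SEW (-0.33, adjusted p = 0.0753), Klf10 with FTY (0.45, adjusted p = 0.0544) and Hbegf with FTY (-0.39, adjusted p = 0.0954) and in the interaction with SEW (0.47, adjusted p = 0.0798). The 1 called with radiation alone was Ier5, which rose by 0.31 ± 0.08, and without control replicate 4 there were 4, all higher, beside 6.83% of all genes. In the interaction of radiation with FTY, 5 were called, all negative like Nr4a3, beside 6.84% of all genes called, among them Nfil3 (-2.50 ± 0.65), Thbs1 (-2.06 ± 0.34), Klf10 (-0.73 ± 0.20) and Mcl1 (-0.47 ± 0.11). The median of the 27 there was -0.19, against 0.05 over all genes.

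Of 25 other nuclear receptors tested, 1 was called with radiation alone, Rarb (-0.47 ± 0.13), where 4.40% of all genes were called; without control replicate 4, 3 were called, all lower. FTY alone lowered the circadian receptors Nr1d1 (-1.25 ± 0.26) and Nr1d2 (-0.76 ± 0.17), where 2.73% of all genes were called. The interaction with FTY was positive for Nr1d1 (1.54 ± 0.38), opposite in sign to that of Nr4a3, where 6.84% of all genes were called. Of the partners and corepressors of the family, Rxra, a dimer partner, was 0.37 ± 0.10 higher with radiation+FTY than with FTY. In that comparison 14.1% of all genes were called. Kdm1a, the demethylase of the CoREST complex through which Nr4a2 can repress genes, fell by 0.28 ± 0.05 with SEW. There 14.6% of all genes were called. Of 19 tested regulators of the family, Srf, which was among the genes most like Nr4a2, fell by 0.57 ± 0.12 from FTY to radiation+FTY (adjusted p = 0.00420). Its interaction of radiation with FTY was -0.69 ± 0.16 (adjusted p = 0.0165). Of all genes, 14.1% were called in the first and 6.84% in the second. The neutrophil mean over the 25 arrays had an r of 0.175 with Nr4a1, -0.05 with Nr4a2 and -0.10 with Nr4a3. Skeletal muscle markers, whose array means ran from 6.57 to 12.6, had an r of -0.01, -0.09 and -0.13 with the 3 members, and adipocyte markers -0.12, 0.06 and 0.09.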

How the data were processed

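Lung RNA of 25 mice (6 µg, Trizol, biotin labelling) was hybridised to Affymetrix arrays, per the labels. The deposited table holds linear signal intensities of each probe set, made with GCOS per the submitters' processing notes; its version, the summary, the background correction and the scaling are not given in the sources used here. Precision is limited by the number of arrays. The 64 control probe sets were left out. The platform annotation, which is old, gave 34945 probe sets 1 symbol, 932 several and 9160 none; the latter kinds were not used.

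Values became log2(signal + 16). Each gene was its probe set with the highest mean, kept above the 40th percentile of all probe sets (6.49), which left 12937 genes. One limma fit (limma 3.58.1, R 4.3.3, a mean per group, trended eBayes, 17 residual degrees of freedom) gave 19 two-sided comparisons with Benjamini-Hochberg adjustment. It was tested on simulated data. Correlations used 100000 permutations, those over deviations permuted within groups. Promoters came from RefSeq (GRCm38.p6).

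Replicate numbers share a label but no stated origin: residual correlations of same-numbered arrays ran from -0.836 to 0.781, 7 of 25 arrays were nearest to their own number, and all pairs exceeded 0.1 in 5 of 16 comparisons (fTyS against control and radiation against control among them, with radiation+fTyS against either of its parts, and SEW against FTY). No block was used. Members and the 21 gene lists (237 of 256 entries on the array) were chosen with earlier results of these data known. Named genes are the members, up to 4 called genes of a list by smallest p, and the 5 genes most like each member. Alternatives were other scalings, pseudocounts, filters, probe set rules, weights, a replicate block, covariates, separate fits per comparison and the omission of single arrays. The refit of named list genes without control replicate 4 was chosen after seeing the data.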

Additional observations from a re-analysis of the deposited data

Results flagged for a closer look

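The radiation difference in Nr4a3 differed between lungs given no compound and lungs given a compound, by the interaction term of the limma fit. The interaction was -2.25 with fTyS (adjusted p = 0.0178), -2.05 with SEW (adjusted p = 0.00409) and -2.83 with FTY (adjusted p = 0.00171). Without a compound, all 3 irradiated lungs were above all 4 controls. With each compound, all 3 irradiated lungs were below all 3 unirradiated ones. The interactions of Nr4a1 and Nr4a2 had adjusted p of 0.114 to 0.968 in the same fit. In the control group no array stood apart in any of the 10 probe sets by Dixon's criterion, with a largest ratio of 0.803 against a critical value of 0.829. That ratio was for control replicate 4 in 1450749_a_at of Nr4a2. A group of 4 arrays gives this criterion little power, so it does not settle the doubt about the label of control replicate 4.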

How the results depend on the processing

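Of 13 called results, none changed sign under any alternative, and the Nr4a3 interactions with SEW and FTY kept their calls in all 27. Median centring and quantile normalization ended the Nr4a2 call of fTyS against SEW (1.03 and 0.998), and median centring and a pseudocount of 1 that of Nr4a3 in radiation+SEW against SEW (-0.90 and -0.91). Without a filter these 2 (1.03 and -0.89) and Nr4a2 in radiation+FTY against FTY (-0.80) were lost. The mean of all probe sets, which includes 2 near-background probe sets of Nr4a3 and 2 of Nr4a2, kept 6 of 13 calls; Nr4a3 then gave 0.35 for radiation and 0.53 for fTyS against control, -0.46 for radiation+FTY against radiation, -0.40 for radiation+SEW against SEW and -0.64 for the fTyS interaction, and Nr4a2 gave -0.45 for radiation+FTY against FTY and 0.64 for fTyS against SEW. With skeletal muscle and adipocyte covariates, Nr4a3 in radiation+FTY against radiation (-1.35) and Nr4a2 in radiation+FTY against FTY (-0.74) were lost. With the neutrophil covariate the losses were Nr4a3 for radiation against control (0.80), radiation+FTY against radiation (-1.34) and against FTY (-1.88), radiation+SEW against SEW (-1.02) and the fTyS interaction (-1.93), Nr4a2 in radiation+FTY against FTY (-0.80) and fTyS against SEW (1.03), and the F test of Nr4a1 (3.58). The cause of these losses was not tested. Fits of only the arrays compared, with fewer arrays, gave the same differences and lost Nr4a3 for radiation (1.16), fTyS (1.59), SEW (1.42) and FTY (1.33) against control and the fTyS interaction (-2.25), Nr4a1 for SEW (-1.03) and Nr4a2 for fTyS against SEW (1.03).

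With the replicate number as a block, Nr4a1 in SEW against control was -0.81 and not called (adjusted p = 0.0689; 0.0103 to 0.0978 over all alternatives), which equals leaving out control replicate 4, the only array of its number; the block changed no other call. Leaving out 1 array at a time gave, for Nr4a3, 0.86 to 1.40 for radiation, 1.29 to 1.83 for fTyS and 1.03 to 1.57 for FTY against control, -1.64 to -1.43 for radiation+FTY against radiation and -1.07 to -0.73 for radiation+SEW against SEW. It gave -1.21 to -0.81 for Nr4a1 in SEW against control, and for Nr4a2 0.93 to 1.16 in fTyS against SEW and -0.86 to -0.74 in radiation+FTY against FTY. The F statistics ran from 2.93 to 7.68 for Nr4a1 and 3.49 to 12.3 for Nr4a2. The r of Nr4a1 with Nr4a3 within groups turned to -0.17 without control replicate 4 and ran up to 0.235 without control replicate 3.

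Values with an unadjusted p above 0.05, a line drawn after the values were seen, carry no direction: of 27 such results 16 changed sign under some alternative and none was called under any. Of 17 uncalled results below that line, 22 of 363 alternative values passed the threshold, mainly with array weights. Groups of 3 or 4 lungs limit all comparisons.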
